A study of Drosophila melanogaster with 3 samples.

Results

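The tumor microenvironment (TME) library holds the RNA of the GFP- cells of eye-antennal discs (EAD) that carried *RasV12; scrib-/-* tumors, and it was compared here with the library of GFP+ cells of control discs, over every gene of the deposited table. The table lists 15603 genes in all, and all 15603 enter the comparison. Of the 3 libraries of the series, 1 is the TME, 1 is the control and 1 holds the GFP+ tumor cells of the same discs as the TME, which is given only beside the other values. Each library was labelled as 50 eye-antennal discs of wandering *Drosophila melanogaster* larvae at Day 6, sorted by FACS, in batch 1. The control carried the genotype GMRGFP. GMR is a promoter built on binding sites of the Glass protein and is active behind the morphogenetic furrow, the front from which the retina differentiates. The larvae of the TME and the tumor shared the genotype y,w,ey-flp/y,w with UAS-RasV12 over Act>y+>Gal4, UAS-GFP and, on the third chromosome, Frt82B scrib2 over Frt82B, tubGal80. In such discs the flippase is driven by *eyeless* sequences, and a clone becomes homozygous for *scrib2*, loses the Gal80 repressor and expresses GFP with RasV12. A GFP- cell is then any cell in which Gal80 was kept or Gal4 was not switched on, so the TME can hold *scrib2* heterozygous cells, their sister clones, and cells of other tissues attached to the disc. The control library was selected by a retinal promoter and the TME library by the absence of GFP, so that the selection and the tumor-bearing state cannot be told apart. The table's headings date the tumor and TME columns but not the control column, so it is not known whether the 3 libraries were prepared together.

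The EAD is a sheet of epithelium that makes the eye, the antenna and the head capsule. The morphogenetic furrow sweeps across the eye field, and cells behind it become photoreceptors, cone cells and pigment cells, while cells ahead of it keep dividing. A thin peripodial epithelium covers the sheet, and glia, myoblasts, tracheal branches and hemocytes, the blood cells of the fly, can adhere to it. The optic stalk ties the disc to the optic lobe of the brain. A pool of GFP- cells can therefore draw on all of these, and a pool of GMR-positive cells is meant to draw on the differentiating retina.

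Values are FPKM, fragments per kilobase of transcript scaled by the authors to library depth, and there is 1 library a side, so no difference has a replicate check and no p-value was computed. The fitted depth was 10917749 fragments in the TME, 1739888 in the control and 1820902 in the tumor. A 2000 nt transcript at 5 FPKM therefore rested on about 103 fragments in the TME but only 16.4 in the control. A gene was called higher or lower when it exceeded 5 FPKM in the higher library and differed by 2-fold or more. Brackets after a ratio give its exact 95% counting interval, which covers counting error only, not the spread between animals, dissections or sorts. Of 7934 genes above 5 FPKM in either library, 6214 (78.3%) met neither call. There were 454 genes higher in the TME (5.72%) and 1159 lower (14.6%), and a further 53 higher genes were listed at 0 in the control and 54 lower genes at 0 in the TME. With those at 0 included, 6.39% of the genes tested were higher and 15.3% were lower, which is the background for the counts of each gene group given here. Since *RpL15*, a ribosomal protein gene, is listed at 0 in all 3 libraries, a 0 may be a failed estimate and no ratio was taken against it.

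The lower genes differed more than the higher ones. Among the lower genes the median ratio of control to TME was 3.98, 579 genes differed by 4-fold or more and 355 by 10-fold or more. Among the higher genes the median ratio of TME to control was 2.44, with 52 genes at 4-fold or more and 5 at 10-fold or more. The counting interval excluded a 2-fold difference for 705 lower and 97 higher genes. Scaling by the upper quartile shifts all ratios by 0.13 on the log2 scale and gives 632 higher and 1024 lower genes, so that the higher genes make up 38.2% of the calls instead of 28.1%. In the plot of all genes these lower genes form a cloud below the diagonal.

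**Figure D1:**
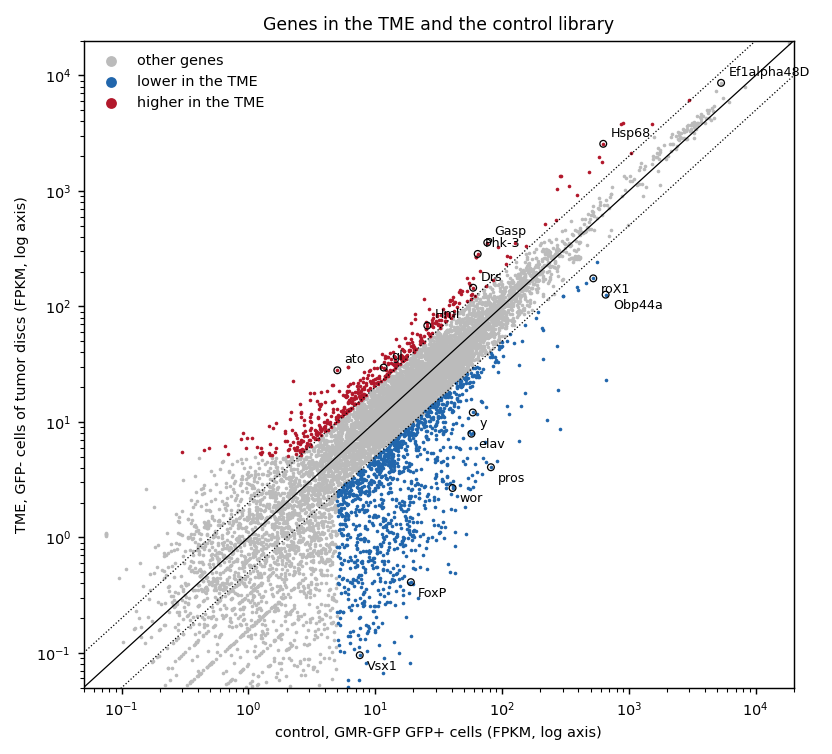
FPKM of each gene in the control (x) and the TME (y), both on log axes, for genes above 0.05 FPKM in both libraries, 1 point a gene. The solid line marks equal values and the dotted lines a 2-fold difference, with the 454 genes higher in the TME in red and the 1159 lower in blue. The lower genes spread far from the line, as *Vsx1* at 0.0954 and 7.55 FPKM, and the higher ones lie close to it.

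Genes of neurons and synapses were lower in the TME as a group. Of 26 such genes above 5 FPKM, 23 were lower and 0 were higher, and the median log2 difference of FPKM + 1 was -2.92 over 28 genes, where the median of all 9609 genes with a mean of at least 1 FPKM was -0.15. The summed level of the list was 429 FPKM in the TME, 1257 in the control and 316 in the tumor. *n-syb*, the SNARE protein of synaptic vesicles, was at 2.65 FPKM in the TME against 54.0 in the control, 20.3-fold (13.1 to 31.7) lower. *brp*, which builds the active zone of the synapse, was at 2.28 and 44.1 FPKM (19.4-fold (16.0 to 23.8) lower). *Syt1*, the calcium sensor of vesicle release, was at 0.982 and 34.6 FPKM (35.3-fold (25.5 to 51.0) lower). The pan-neuronal RNA-binding genes were of the same kind, as *elav* was at 7.90 FPKM in the TME against 57.3 in the control (7.26-fold (5.91 to 8.86) lower), and *fne* at 1.82 and 50.6 FPKM (27.7-fold (21.6 to 36.1) lower).

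The lower neuronal genes covered several transmitters. *VGlut*, the vesicular transporter of glutamate, was at 1.37 FPKM in the TME against 21.3 in the control. *VAChT*, that of acetylcholine, was at 0.277 and 12.5 FPKM. *Gad1*, which makes GABA, was at 0.880 and 15.8 FPKM. The zinc finger gene *nerfin-1*, which maintains neuronal fate, was at 17.8 FPKM in the TME against 152 in the control (8.55-fold (7.69 to 9.53) lower). The members that met neither call were *Syx1A* at 13.8 and 17.5 FPKM, *tomosyn* at 12.5 and 16.5 FPKM and *stai* at 291 and 267 FPKM. In bulk samples such as these, fewer neurons and less neuronal RNA per cell cannot be told apart. Several transcripts of the brain, the ring gland and the fat body were also at higher levels in the control than in the TME, with the values given for those tissues, and whether other tissue in the control had a part in the neuronal difference was not tested.

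Families of neuronal surface proteins showed the same direction. Of the *nAChRalpha* subunits of the acetylcholine receptor, 5 of 5 above 5 FPKM were lower, with a median log2 difference of -3.49. Of the *dpr* genes, immunoglobulin proteins through which synaptic partners are matched, 11 of 12 were lower (median -2.55), of the *beat* guidance receptors 8 of 9 (median -2.75), and of the *side* family that binds them 6 of 7 (median -2.37). *Side* was at 0.527 FPKM in the TME against 25.5 in the control (48.4-fold (26.3 to 96.5) lower). *beat-IIIb* was at 0.0582 FPKM in the TME against 7.45 in the control. These families were singled out after their values were seen.

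The neural genes of the control included transcription factors of the optic lobe and the brain, which are not genes of the larval retina alone. A list of 17 such factors was drawn up after the values had been seen, and 11 of the 14 above 5 FPKM were lower in the TME. *Vsx1*, a homeobox gene of the optic lobe, was at 0.0954 FPKM in the TME against 7.55 in the control. *hbn*, a homeobox gene of the brain, was at 0.922 and 14.2 FPKM (15.4-fold (8.64 to 29.0) lower). *FoxP* was at 0.409 and 19.1 FPKM (46.6-fold (24.9 to 105) lower), and *erm*, which acts in neural progenitors of the brain, at 1.30 and 15.6 FPKM (12.0-fold (8.09 to 18.3) lower). The members above 5 FPKM that were not lower were *toy* at 94.3 FPKM in the TME against 81.6 in the control, *slp1* at 18.5 against 35.0 FPKM, and *dac*, which was higher in the TME at 46.5 against 19.8 FPKM. Both *toy* and *dac* also act in the eye, as does *run*, which was lower at 0.544 against 6.31 FPKM.

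Peptide hormone genes differed in both directions. Of 25 neuropeptide precursors, also listed after the values were seen, 7 of the 8 above 5 FPKM were lower in the TME and none was higher. *Dh31* was at 0.156 FPKM in the TME against 8.76 in the control, and *hug* had 9.40 FPKM in the control but was listed at 0 in the TME, the control value resting on about 15 fragments. *Akh*, the adipokinetic hormone of the corpora cardiaca in the ring gland, was at 2.88 FPKM in the TME against 36.2 in the control (12.5-fold (6.22 to 26.6) lower). The ring gland was also represented by *jhamt*, an enzyme of juvenile hormone synthesis in the corpus allatum, at 0.105 FPKM in the TME against 5.23 in the control, the latter from about 8 fragments. *ETH*, the hormone of the Inka cells on the trachea, met neither call, at 22.5 and 16.0 FPKM.

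The insulin-like peptide genes *Ilp2*, *Ilp3* and *Ilp5* encode hormones secreted by the insulin-producing cells of the brain. All 3 were present in the TME, at 11.0, 19.2 and 12.7 FPKM, from about 66, 132 and 50 fragments, and all 3 were listed at 0 in the control and in the tumor. At the TME level the control library would have held about 10.6 fragments of *Ilp2*, 21.1 of *Ilp3* and 7.89 of *Ilp5*. Whether these zeros are failed estimates cannot be told from the table. *Ilp8*, which discs secrete when their growth is disturbed, was at 86.2 FPKM in the TME, 99.8 in the control and 693 in the tumor, so that the TME and control values lay close together.

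Genes of neural stem cells, the neuroblasts, were lower in part. Of 14 members above 5 FPKM, 5 were lower and 0 higher (median log2 difference -0.49). *wor*, a Snail family factor of neuroblasts, was at 2.68 FPKM in the TME against 40.7 in the control (15.2-fold (11.3 to 21.0) lower). *mira*, which carries fate determinants through the asymmetric division, was at 3.07 and 34.3 FPKM (11.2-fold (8.58 to 14.5) lower), and the proneural gene *ase* at 1.82 and 15.6 FPKM (8.57-fold (5.78 to 12.9) lower). The long noncoding RNA cherub, listed as *CR43283* and known from neuroblasts, showed the same at 22.96 and 662 FPKM (28.9-fold (26.8 to 31.1) lower). *dpn*, a target of Notch in neuroblasts that other tissues also express, was at 38.9 and 42.6 FPKM and met neither call.

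Glial genes were divided. Of 17 above 5 FPKM, 7 were lower and 1 higher, with a median of -0.53, and the summed level was 572 FPKM in the TME, 1122 in the control and 544 in the tumor. *repo*, the homeobox gene of nearly all glia, was at 12.1 FPKM in the TME, 27.5 in the control and 3.06 in the tumor (2.28-fold (1.87 to 2.78) below the control). Markers of astrocyte-like glia, which lie in the neuropil of the central nervous system, differed more. *alrm* was at 1.58 and 21.8 FPKM (13.8-fold (8.61 to 22.2) lower), and the glutamine synthetase gene *Gs2* at 0.432 and 15.5 FPKM (35.9-fold (15.9 to 94.9) lower). *Obp44a*, an odorant-binding protein gene of glia, was at 126 and 656 FPKM (5.19-fold (4.65 to 5.79) lower). *moody*, of the glia that seal the blood-brain barrier, was at 9.69 and 9.89 FPKM. *Gli*, a tricellular junction gene shared with epithelia, was higher in the TME, at 42.5 and 21.0 FPKM.

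**Figure D2:**
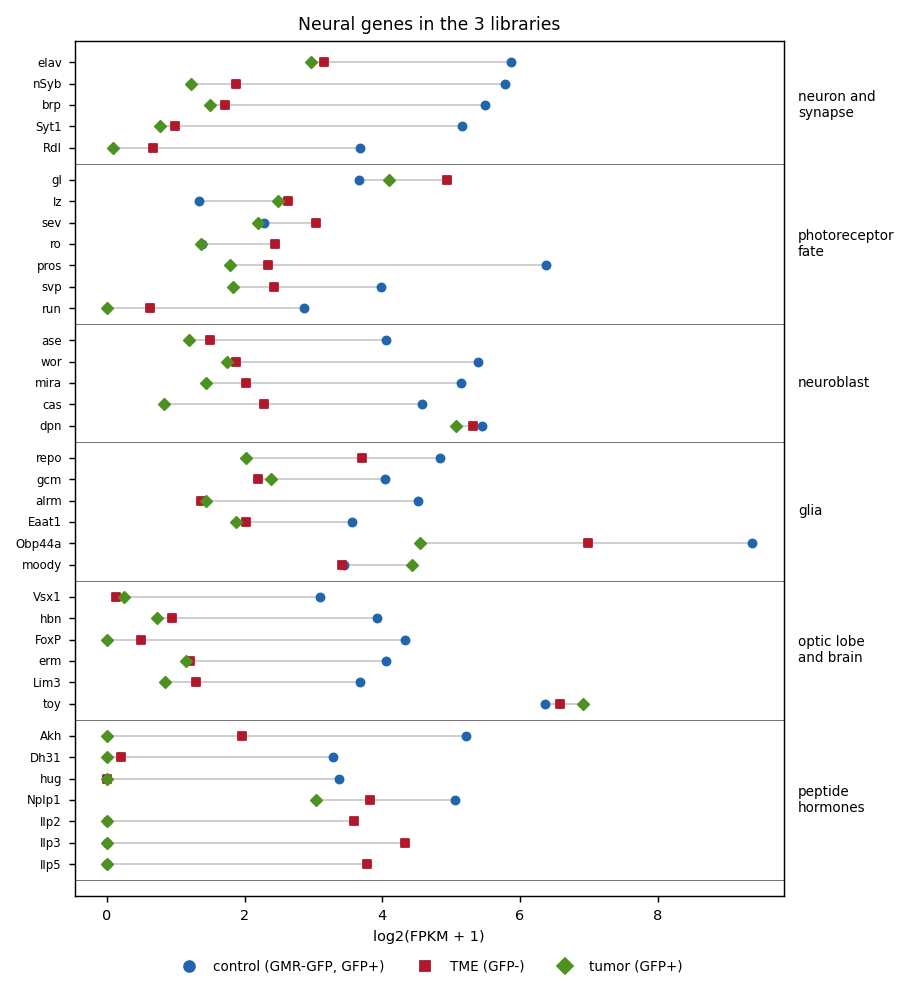
Level of neural genes in the control (circles), the TME (squares) and the tumor (diamonds) on a log2(FPKM + 1) axis, 1 library each, grouped by the role written at the right. For most genes the control lies to the right of the TME, as *elav* at 57.3 against 7.90 FPKM, while *gl* and *lz* show the reverse and *Ilp2*, *Ilp3* and *Ilp5* are above 0 in the TME only.

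The genes of photoreceptor fate did not move as a group, although the control was labelled as cells with an active retinal promoter. Of 14 such genes above 5 FPKM, 7 were lower in the TME and 2 were higher (median -0.48). *gl*, which encodes the Glass factor that GMR responds to, was at 29.6 FPKM in the TME against 11.6 in the control (2.54-fold (1.96 to 3.39) higher in the TME). *lz*, a Runt factor of later retinal cells, was at 5.22 and 1.53 FPKM (3.40-fold (1.68 to 7.97) higher). *sev*, the receptor of the last photoreceptor to be recruited, was at 7.21 and 3.88 FPKM (1.86-fold (1.42 to 2.52)), and *ro*, of the early photoreceptors, at 4.45 and 1.603 FPKM (2.77-fold (0.876 to 13.6)), neither of which met the call. Among the lower genes, *pros*, a factor of cone cells and of neural lineages, was at 4.05 FPKM in the TME against 81.7 in the control (20.2-fold (17.4 to 23.4) lower). The orphan nuclear receptor *svp* was at 4.38 and 14.8 FPKM (3.38-fold (2.49 to 4.54) lower), and *run* at 0.544 and 6.31 FPKM (11.6-fold (5.74 to 26.5) lower). Rhodopsin-stage genes are not yet on in larvae, and *chp*, a membrane protein of the photoreceptor, was at 1.81 and 1.92 FPKM. Of the 4 defining members of the list, *elav* was the only 1 with a higher level in the control than in the TME, and *sens* joined *ro* and *sev* in the opposite direction at 3.28 and 1.22 FPKM.

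Eye field genes, by contrast, were near or above the control level in the TME. Of 12 retinal determination genes above 5 FPKM, 2 were higher and 0 were lower (median 0.63). *ey*, the Pax6 gene that starts eye development, was at 42.1 FPKM in the TME against 37.4 in the control, and its partners *eya* and *so* were at 46.8 and 24.4 FPKM in the TME against 28.8 and 14.1 in the control. None of these met the call. *dac*, which they switch on around the furrow, did so at 2.35-fold (2.01 to 2.78) higher, as did the Pax gene *toe* at 9.31 and 2.77 FPKM (3.37-fold (1.83 to 6.77)).

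Around the furrow, 5 of 14 genes above 5 FPKM were higher in the TME and 0 were lower (median 0.77). *ato*, the proneural gene that founds each ommatidium, was at 28.0 FPKM in the TME, 5.02 in the control and 11.9 in the tumor, 5.57-fold (2.88 to 11.3) above the control. *h*, a repressor expressed just ahead of the furrow, was at 71.4 and 28.2 FPKM (2.53-fold (2.07 to 3.13) higher). The signals that drive the furrow were higher as well, with *hh* at 22.8 and 9.10 FPKM (2.50-fold (1.77 to 3.57)) and *dpp* at 19.1 and 7.28 FPKM (2.63-fold (1.89 to 3.70)). *Tom*, a Bearded family gene of the Notch system, was at 272 and 110.0 FPKM (2.47-fold (2.11 to 2.92) higher). *da*, the ubiquitous partner of proneural factors, was at 35.0 and 35.1 FPKM.

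Genes of the disc margin and the peripodial epithelium were higher in the TME for 7 of 12 members above 5 FPKM and lower for 1, with a median of 1.10. *hh* is among the 7 and is also counted with the furrow genes, so the counts of these lists are not independent. The odd-skipped family, which marks the margin from which the furrow starts, gave *bowl* at 134 FPKM in the TME against 45.5 in the control (2.95-fold (2.60 to 3.36) higher), *sob* at 27.7 and 8.91 FPKM (3.12-fold (2.24 to 4.37) higher) and *odd* at 12.96 and 4.61 FPKM (2.81-fold (1.74 to 4.77) higher). The fourth gene of the family, *drm*, met no call at 56.3 and 30.8 FPKM (1.83-fold (1.47 to 2.29)). The Dorsocross T-box genes, known from the peripodial layer, were higher too, *Doc1* at 15.2 and 4.69 FPKM (3.24-fold (1.71 to 6.82)), *Doc2* at 5.29 and 1.25 FPKM (4.24-fold (1.59 to 15.6)) and *Doc3* at 6.65 and 2.57 FPKM (2.58-fold (1.21 to 6.54)). Their tumor values were 2.38, 1.82 and 3.59 FPKM, while those of *drm*, *sob*, *odd* and *bowl* were 137, 41.6, 14.7 and 134 FPKM. The list had a median log2 difference of 0.92 between the tumor and the control. *tup*, a LIM homeobox gene that neurons also use, was the lower member at 4.73 and 25.7 FPKM (5.44-fold (4.09 to 7.20) lower).

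Among 19 genes of the antenna and the head above 5 FPKM, 2 were higher and 4 lower (median -0.13). *ss*, which gives the antenna its identity, was at 5.85 FPKM in the TME against 2.08 in the control (2.82-fold (1.65 to 5.24) higher), and *Dll*, the appendage selector, was at 26.0 and 14.8 FPKM (1.76-fold (1.32 to 2.37)) and met no call. The lower members *ap*, *bab1*, *Lim3* and *salm* are also factors of neurons or other tissues, and *ap* was at 4.27 FPKM in the TME, 36.7 in the control and 26.0 in the tumor. *inv*, an engrailed family gene outside this list, was among the largest ratios at 15.3 and 3.45 FPKM (4.45-fold (2.53 to 8.32) higher).

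Genes for chitin and the apical matrix were higher in the TME. Of 16 members of the cuticle list above 5 FPKM, 10 were higher and 0 were lower (median 1.07). *verm* and *serp*, which deacetylate chitin, were at 326 and 152 FPKM in the TME against 93.3 and 56.2 FPKM in the control, 3.49-fold (3.13 to 3.91) and 2.71-fold (2.35 to 3.13) higher. *kkv*, the chitin synthase, was at 67.2 and 28.2 FPKM (2.39-fold (2.10 to 2.71) higher). *Gasp*, a chitin-binding protein, was at 357 FPKM in the TME, 76.5 in the control and 294 in the tumor, so that both libraries of the tumor-bearing discs lay above the control. The chitinases had 5 of 7 genes of the *Cht* family higher, with *Cht2* at 74.7 and 35.4 FPKM. *Cht5*, which degrades old cuticle at the molt, was at 11.2 and 15.1 FPKM and met neither call.

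In the trachea list, 11 of 14 genes above 5 FPKM were higher and 2 were lower (median 1.12). The list summed to 1361 FPKM in the TME, 501 in the control and 1435 in the tumor. This list shares members with the cuticle list, among them *verm*, *serp* and *kkv*, so the counts of these lists are not independent. The higher members are matrix genes that other epithelia also use, as *dp*, a giant apical matrix protein, at 13.1 and 3.61 FPKM (3.62-fold (3.10 to 4.26) higher) and *pio*, a zona pellucida protein, at 137 and 52.6 FPKM (2.60-fold (2.11 to 3.24) higher). The defining regulators of tracheal fate did not join them. *trh* was at 1.24 FPKM in the TME against 2.97 in the control, and the FGF receptor *btl* at 1.79 and 2.19 FPKM, all below 5 FPKM. The POU factor genes *vvl* and *pdm3*, which neurons share, were the lower members, at 0.641 and 7.15 FPKM in the TME against 9.07 and 30.2 in the control. Among junction genes, *pck*, a claudin of the septate junction, was the only 1 of 22 to meet the call, at 127 and 47.4 FPKM (2.68-fold (2.19 to 3.34) higher), and the median of that list was 0.31.

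**Figure D3:**
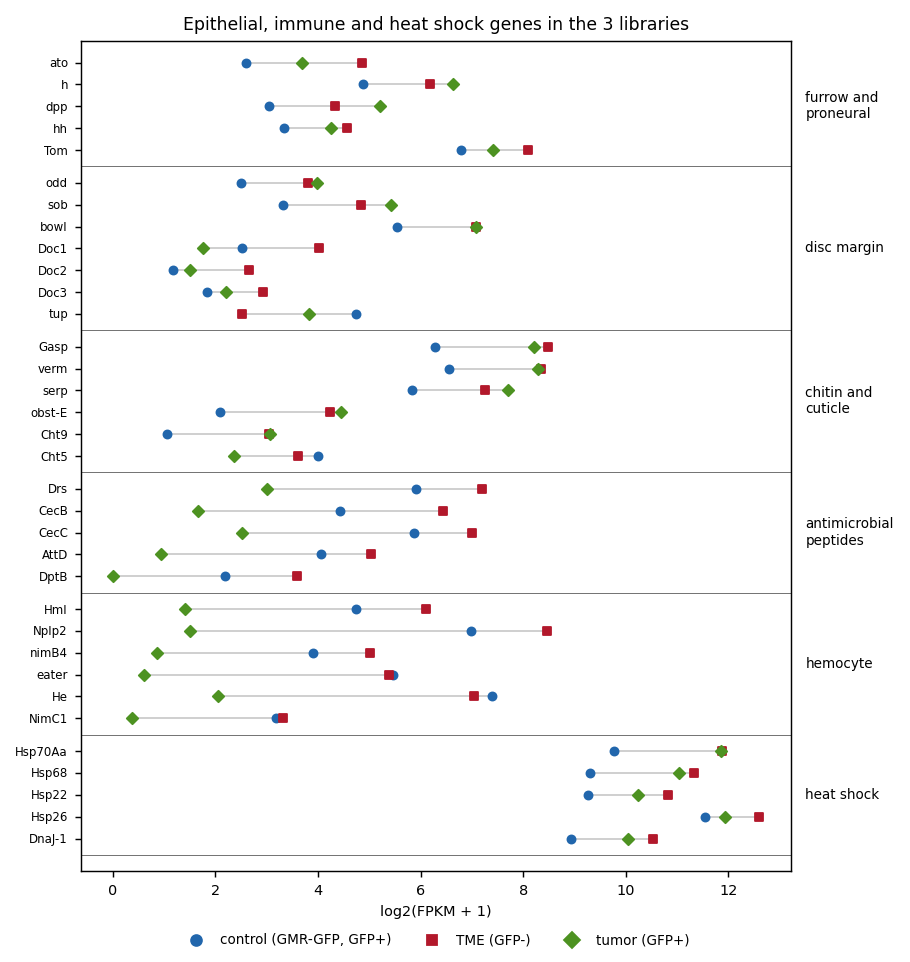
Level of epithelial, immune and heat shock genes in the control (circles), the TME (squares) and the tumor (diamonds) on a log2(FPKM + 1) axis, 1 library each. The TME lies to the right of the control for most genes, as *ato* at 28.0 against 5.02 FPKM, and for the antimicrobial peptide and hemocyte genes the tumor lies far to the left of both.

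Immune effector genes had a higher level in the TME than in the control, and almost none in the tumor. Of 11 antimicrobial peptide genes above 5 FPKM, 6 were higher and 0 lower (median 0.96), and the summed level was 535 FPKM in the TME, 256 in the control and 27.6 in the tumor. *Drs*, the drosomycin gene known as a readout of Toll, was at 145 FPKM in the TME, 59.2 in the control and 7.07 in the tumor (2.45-fold above the control). Of the cecropins, *CecB* was at 85.8 and 20.4 FPKM (4.20-fold (2.28 to 8.39) higher) and *CecC* at 127 and 57.4 FPKM (2.21-fold higher), while *CecA1* and *CecA2* met no call at 47.3 and 42.4 FPKM in the TME against 32.8 and 24.9 FPKM in the control. The attacins were mixed, with *AttD* at 31.6 and 15.7 FPKM (2.01-fold (1.22 to 3.51) higher) and *AttA* at 5.16 and 7.63 FPKM (1.48-fold (0.632 to 3.13)), and *Mtk*, metchnikowin, was at 16.7 and 16.2 FPKM. Cecropin copies are similar in sequence, and several transcripts are too short for a counting interval, so single members are uncertain.

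Among the recognition proteins of immunity, 3 of 9 were higher and 0 lower. The higher ones were glucan-binding proteins, *GNBP3* at 75.7 and 31.9 FPKM (2.37-fold (1.89 to 3.04)), *GNBP2* at 12.2 and 4.67 FPKM and *GNBP1* at 35.1 and 17.5 FPKM, the last close to the limit at 2.01-fold (1.498 to 2.71). The peptidoglycan receptor *PGRP-SA* was at 20.2 FPKM in the TME against 16.4 in the control (1.24-fold (0.756 to 2.22)). In the Toll list, 2 of 18 genes were higher and 1 was lower. *ea*, the protease Easter that activates the Toll ligand in embryos, was higher at 5.57-fold (2.32 to 17.2). The other higher gene was *modSP* at 24.8 and 12.0 FPKM (2.06-fold (1.53 to 2.88)). The lower gene was *Toll-6*, at 5.82 FPKM in the control from about 55 fragments and listed at 0 in the TME. *Tl* itself met no call, at 22.3 FPKM in the TME against 43.4 in the control (1.94-fold (1.72 to 2.19) lower). The nuclear factors *dl* and *Dif* were at 63.4 and 32.7 FPKM in the TME against 45.3 and 23.3 in the control. In the IMD list none of 11 genes met a call, and its nuclear factor *Rel* was at 186 and 167 FPKM (1.12-fold (1.03 to 1.21)).

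Blood cell RNA was present at a like level in the TME and the control, and at a lower level in the tumor. Of 23 hemocyte genes above 5 FPKM, 5 were higher in the TME and 1 was lower (median 0.16), and the list summed to 2207 FPKM in the TME, 1857 in the control and 389 in the tumor. The defining phagocyte gene *eater* was at 40.5 FPKM in the TME against 43.0 in the control and 0.518 in the tumor, and *nimC1* at 8.98, 8.02 and 0.289 FPKM. *He*, the surface protein Hemese, was at 131 FPKM in the TME, 168 in the control and 3.15 in the tumor. *Hml*, the clotting protein Hemolectin, was the defining member that met the call, at 68.2 FPKM in the TME, 25.7 in the control and 1.64 in the tumor (2.65-fold (2.43 to 2.90) above the control). *Nplp2* was at 353 and 126 FPKM (2.80-fold (2.20 to 3.59) higher), and *Ppn*, a matrix protein that hemocytes secrete, at 106 and 42.0 FPKM (2.53-fold (2.32 to 2.77) higher). In the tumor *Nplp2* and *Ppn* were at 1.84 and 29.9 FPKM. The crystal cell enzymes, the prophenoloxidases *proPO-A1* and *PO45*, were at 119 and 131 FPKM in the TME against 78.0 and 103 FPKM in the control, and neither met the call. The collagen IV genes *Cg25C* and *vkg*, made by fat body and hemocytes, were at 87.9 and 61.8 FPKM in the TME against 54.8 and 36.0 in the control. Hemocytes also express antimicrobial peptides, and the part of hemocyte number in the antimicrobial peptide levels was not tested.

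Myoblast genes likewise differed little between the TME and the control. Of 12 above 5 FPKM, 0 were higher and 1 was lower in the TME (median -0.25). The mesodermal factor *twi* was at 13.1 FPKM in the TME, 10.03 in the control and 1.26 in the tumor, and *zfh1* at 32.6, 38.8 and 2.24 FPKM. *htl*, the FGF receptor of myoblasts and glia, had 11.3 FPKM in the TME, 13.7 in the control and 0.815 in the tumor. For *twi*, *zfh1*, *htl* and the blood cell genes with tumor values given, the control sorted as GFP+ thus lay above the tumor sorted as GFP+. *Mef2* and *blow* of the myoblast list went the other way, at 19.2 and 61.3 FPKM in the tumor against 16.1 and 46.4 in the control. So did *kirre* and *lmd*, each below 5 FPKM in both libraries. The myoblast list summed to 172 FPKM in the tumor against 321 in the control, with a median log2 difference of -1.32. Differentiated muscle was represented by 8 of 24 genes above 5 FPKM, and *Mhc*, myosin heavy chain, was at 3.51 and 1.29 FPKM.

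Other larval organs left few traces apart from several fat body genes in the control. Fat body proteins were lower in the TME for 5 of 10 genes above 5 FPKM and higher for 1. *Lsp2*, a larval serum protein, had 18.2 FPKM in the control, from about 69 fragments, and was listed at 0 in the TME. The hexamerin receptor gene *Fbp1* was at 0.139 and 19.0 FPKM (137-fold (56.9 to 429.7) lower). *Idgf4*, a growth factor gene with a chitinase fold, was the higher member at 159.6 and 54.8 FPKM (2.91-fold (2.44 to 3.49)). Salivary glue genes were near 0 in both libraries, with *Sgs3* at 0.185 and 1.16 FPKM, and none of 20 digestive genes of the gut exceeded 5 FPKM. *fkh*, a salivary gland factor that also acts in other tissues, was at 0.163 FPKM in the TME against 8.86 in the control.

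**Figure D4:**
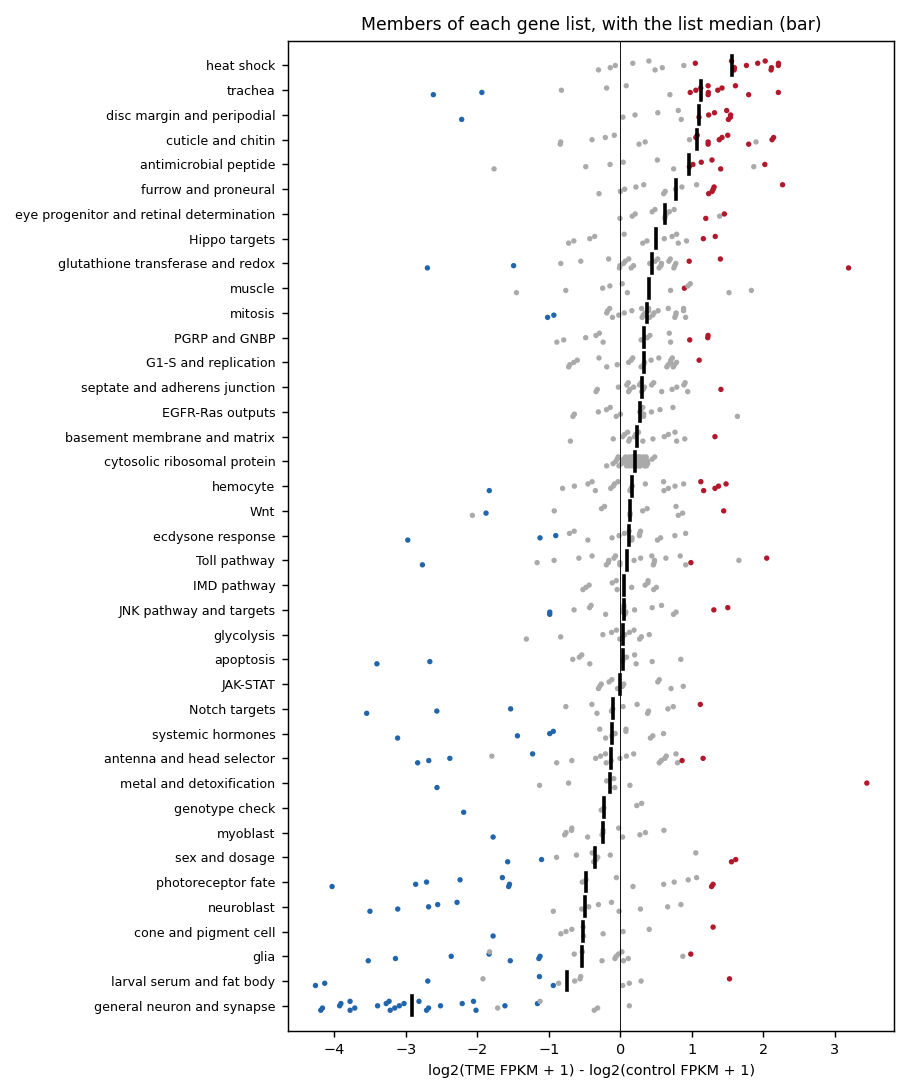
Difference of log2(FPKM + 1) between the TME and the control for each member with a mean of at least 1 FPKM, by gene list, 1 point a gene, with members called higher in red and lower in blue. The black bar is the list median, from -2.92 for neurons and synapses to 1.55 for heat shock, and lists with fewer than 5 such members are left out.

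Signaling pathways were mostly near the control level in the TME. In the JAK-STAT list none of 11 genes above 5 FPKM met a call (median -0.01), and the cytokines *upd2* and *upd3* were at 5.92 and 6.89 FPKM in the TME against 7.46 and 7.57 in the control. None of 15 outputs of EGFR and Ras met a call either (median 0.28), with the feedback inhibitor *sty* at 44.4 FPKM in the TME, 36.2 in the control and 109 in the tumor. In the JNK list 2 of 19 genes were higher and 2 were lower (median 0.05). The higher ones were *CG10176*, the TNF receptor gene grindelwald, at 45.3 and 15.4 FPKM (2.95-fold (2.17 to 4.04)), and the filamin gene *cher* at 83.6 and 33.2 FPKM (2.52-fold (2.16 to 2.95)). Their tumor values, 71.8 and 188 FPKM, lay above those of the TME. The lower ones were the ligand *egr* at 16.1 and 32.9 FPKM (2.05-fold (1.64 to 2.53)) and the kinase *bsk* at 57.8 and 116 FPKM, which lies at the 2-fold limit (2.00-fold (1.75 to 2.29)). The JNK target *puc* was at 48.5 and 76.7 FPKM, and *Mmp1*, a matrix protease, at 122 FPKM in the TME, 106 in the control and 285 in the tumor.

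Growth and patterning genes differed gene by gene. Of 14 genes of the Hippo pathway and its targets, 2 were higher and 0 lower (median 0.49). The target *fj* was at 34.7 FPKM in the TME, 13.3 in the control and 112 in the tumor (2.62-fold (2.09 to 3.34) above the control). The pathway gene *d* was at 70.7 and 31.1 FPKM (2.27-fold (2.01 to 2.58) higher). *ex*, of the same list, was at 88.1 and 46.0 FPKM (1.92-fold (1.75 to 2.10)). Of 10 Wnt genes, *Wnt6* was higher at 18.6 and 6.22 FPKM (3.00-fold (2.09 to 4.58)) and *Wnt4* lower at 4.09 and 17.7 FPKM (4.34-fold (3.26 to 5.74)), and *wg* was at 13.2 and 7.11 FPKM (1.86-fold (1.30 to 2.68)). Among 14 Notch targets, 3 were lower and 1 was higher. The lower ones were led by *Hey*, used by newborn neurons, at 4.30 and 61.1 FPKM (14.2-fold (10.7 to 18.9)), and *m6* of the Enhancer of split complex at 45.3 and 274 FPKM (6.04-fold (5.32 to 6.85)). *m2* of the same complex was higher at 337 and 155 FPKM (2.18-fold (1.90 to 2.51)), and *HLHmbeta*, its most abundant gene here, was at 755 and 642 FPKM (1.18-fold (1.10 to 1.26)).

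The ecdysone response had 3 of 17 genes lower (17.6%, near the 15.3% of all genes tested) and 0 higher (median 0.12). *Eip93F*, a late factor of the response, was at 1.02 FPKM in the TME against 14.9 in the control (14.6-fold (10.4 to 21.0) lower), and the nuclear receptor *Eip75B* at 19.7 and 44.1 FPKM (2.24-fold (1.95 to 2.58) lower), while the receptor *EcR* was at 28.1 and 23.1 FPKM and the target *br* at 123 and 124 FPKM. Of the secreted factors, *Actbeta*, an activin used by neurons, was at 1.18 and 17.9 FPKM (15.2-fold (10.6 to 21.8) lower) and *daw* at 4.25 and 13.2 FPKM (3.12-fold (2.24 to 4.29) lower). *ImpL2*, a secreted protein that binds insulin-like peptides, was at 245 FPKM in the TME, 232 in the control and 1246 in the tumor. Cell death genes were lower for 2 of 13 members, a share of 15.4% that is also near that of all genes. These were *grim* at 0.635 and 9.38 FPKM (14.8-fold (7.08 to 33.3)) and *skl* at 1.01 and 20.3 FPKM (20.1-fold (10.9 to 39.8)). *rpr*, of the same cluster, was at 67.2 and 49.2 FPKM (1.37-fold (1.06 to 1.78)) and met neither call.

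Heat shock genes were higher in the TME for 11 of 19 members and lower for 0, with a median of 1.55, the highest of the lists with at least 5 members in the plot of lists. *Hsp68* was at 2559.9 FPKM in the TME, 629 in the control and 2085 in the tumor (4.07-fold (3.91 to 4.25) above the control). *Hsp70Aa* had 3766 FPKM in the TME, 870.4 in the control and 3701 in the tumor, and the other *Hsp70* copies had ratios of a like size, but these copies are near-identical and share reads. The cochaperone genes *DnaJ-1* and *stv* were higher at 3.02-fold (2.87 to 3.18) and 3.04-fold (2.70 to 3.45), and *Hsp26*, a small heat shock protein, at 2.07-fold (2.00 to 2.13). *Hsp23*, of the same cluster, met no call at 7339.6 FPKM in the TME against 4892 in the control, nor did the constitutive *Hsc70-4* at 2362 and 1688 FPKM (1.399-fold (1.36 to 1.44)). Heat shock RNAs also respond to handling and dissociation of tissue, and the part of handling in these values was not tested.

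Housekeeping groups gave the scale of agreement between the libraries. None of 60 listed cytosolic ribosomal protein genes met a call, with ratios from 0.875 to 1.39 and a median log2 difference of 0.21. By symbol, 3 of 36 *RpS* genes above 5 FPKM were lower, *RpS5b*, *RpS10a* and *RpS28a*, and these are outside the list. *RpS10a* and *RpS28a* were listed at 0 in the TME, with about 5 and 3 fragments in the control. None of 12 glycolysis genes met a call (median 0.03). Of 25 mitosis genes, 2 were lower, *Bub1* and *cal1*, and 0 were higher (median 0.37), and *CycB* was at 88.8 and 46.8 FPKM (1.90-fold (1.65 to 2.21)). Of 24 genes of replication and the entry into S phase, *Cdc6* was higher and none was lower (median 0.33), with *mus209*, the sliding clamp PCNA, at 218 and 129 FPKM (1.69-fold (1.46 to 1.97)). In the redox list 3 of 26 genes were higher and 2 lower, the most abundant being *GstD1* at 868 and 586 FPKM. *MtnA*, a metallothionein, was at 34.8 FPKM in the TME, 211 in the control and 8.72 in the tumor (6.06-fold below the control).

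Of the genes changed in the construction of the tumors, *Ras85D*, *w* and *scrib* were near the control level in the TME, and *y* was lower. *Ras85D*, whose activated form the clones express, was at 118 FPKM in the TME, 139 in the control and 327 in the tumor, so that the TME did not share the tumor level. *w*, the marker gene carried by transgenes, followed the same order at 54.2, 65.5 and 151 FPKM, and *scrib* was at 44.6, 36.2 and 51.0 FPKM. The *scrib2* RNA was not told apart from the normal one in gene-level values. *y* was at 12.1 FPKM in the TME against 58.8 in the control (4.87-fold (4.01 to 5.88) lower). It is mutant in the genotype of the tumor-bearing discs, which also carries y+ in the Act>y+>Gal4 cassette. The labels write that genotype with 2 X chromosomes and do not give the sex of the control larvae. *roX1* and *roX2*, the noncoding RNAs of dosage compensation in males, were at 175 and 88.6 FPKM in the TME against 525 and 192 FPKM in the control, 3.00-fold (2.87 to 3.13) and 2.16-fold (1.76 to 2.64) lower. The sex-determination genes *fru* and *dsx* were higher in the TME, at 58.7 and 11.6 FPKM against 19.3 and 3.12 FPKM (3.03-fold (2.39 to 3.89) and 3.72-fold (2.28 to 6.42)). Genotype, sex and the state of the discs cannot be told apart for these genes.

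Ranked by ratio, the leading higher genes were mainly of low level. Leaving out genes with CG numbers, *Osi2* (5.68 and 0.449 FPKM), *cuff* (5.99 and 0.486 FPKM) and *Cpr49Ah* (6.21 and 0.658 FPKM) led the named genes, each from about 1 fragment in the control, so that their lower interval bounds were 2.20, 2.14 and 1.62. Better measured among the leading genes were several *Hsp70* copies, *Gasp* and *Phk-3*. *Phk-3*, a pherokine of the chemosensory protein family, was at 285 and 64.3 FPKM (4.43-fold (3.30 to 6.00) higher). *cuff* and *shu* belong to the piRNA pathway of the germline, and *shu* was at 9.25 and 1.45 FPKM (6.36-fold (2.43 to 23.5) higher). By difference of FPKM the leading higher protein-coding gene was *Ef1alpha48D*, a translation elongation factor, at 8634 FPKM in the TME against 5344 in the control (1.62-fold (1.59 to 1.64)), below the 2-fold limit. Its paralog *Ef1alpha100E* went the other way, at 8.65 and 287 FPKM (33.2-fold (28.9 to 38.4) lower).

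Ranked by ratio, the lower protein-coding genes were led by *pre-mod(mdg4)-W* and *CG43346*, whose TME values correspond to far less than 1 fragment, so that no ratio is given. Next came *Hs3st-A*, a heparan sulfotransferase gene, at 0.0167 and 5.95 FPKM, and the glutamate receptor gene *Glu-RI* at 0.0247 and 6.31 FPKM, each from about 1 fragment in the TME. *stnB*, an endocytic protein of synapses, was at 0.0906 and 11.7 FPKM (129-fold (63.4 to 301) lower). *Task6*, a potassium channel, was at 0.330 and 18.6 FPKM (56.3-fold (31.5 to 108) lower), and *CanB*, a calcineurin subunit, at 0.838 and 42.9 FPKM (51.3-fold (26.9 to 122) lower). By difference of FPKM the lower protein-coding genes were led by *cib*, an actin-binding beta-thymosin protein, at 1116 and 1765 FPKM (1.58-fold (1.51 to 1.65)), then by *Obp44a* and by *His3.3B*, a histone variant gene, at 511 and 985 FPKM (1.93-fold (1.84 to 2.03)), and of these only *Obp44a* met the call. *Jupiter*, a microtubule-associated protein, was at 240.4 and 566 FPKM (2.35-fold (2.19 to 2.52) lower). The gene *CG13928*, of which no role is given here, was at 18.8 FPKM in the TME against 275 in the control (14.6-fold (13.2 to 16.3) lower).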

How the data were processed

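RNA was sequenced from sorted eye-antennal disc cells, 1 library each of TME, control and tumor. The authors prepared TruSeq libraries, ran them on a MiSeq, processed the reads with the Tuxedo suite against the *Drosophila* genome release named in their methods, and deposited 1 table of FPKM values. The labels name Trizol and the methods Qiagen kits for extraction. Tool versions and annotation: not given in the sources used here. Column headings named the samples, and 0 columns were left unmapped.

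Ratios of the TME to the control FPKM were taken as deposited. A gene was called with more than 5 FPKM in the higher library, above 0 in the lower one and a ratio of at least 2, and genes at 0 were counted apart but enter the counts of the lists. Depth was fitted from the steps of low FPKM values of genes with 1 annotated transcript of 400 to 4000 nt. At the fitted depth 84.0% of these values in the TME and 81.2% in the control lay no more than 0.1 from whole fragment numbers (20% by chance). Fragments came from the shortest annotated transcript, and exact Clopper-Pearson intervals were given only over 400 nt. Lengths, symbols and chromosome arms came from the Ensembl annotation of another build (BDGP6), so no coordinates were taken. Of 15603 genes, 14927 matched by identifier, 220 by symbol and 294 by synonym (99.0%). Gene sequences are not shown here.

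List medians are of log2(FPKM + 1) differences over members with a mean of at least 1 FPKM. There were 41 lists, and 509 genes followed the rule for named genes: the 20 named and 5 numbered protein-coding genes with the largest ratio in each direction, the 15 with the largest difference of FPKM in each direction, and of each list its 4 defining members and up to 8 others with the largest log2 difference. The few genes named outside the rule, the lists of brain factors, neuropeptides and insulin-like peptides, and the symbol families were chosen after their values were seen. A gene of the list of brain factors was left out and is not reported here. All members and lists were chosen with earlier results of these data known. The steps were tested on simulated data. Python 3.11.15, numpy 2.4.6, pandas 2.3.3, scipy 1.17.1 and matplotlib 3.10.9 were used.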

Additional observations from a re-analysis of the deposited data

How the results depend on the processing

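The number of higher and lower genes depended on the thresholds. A ratio of 1.5 gave 1098 higher and 2064 lower genes, and a ratio of 3 gave 112 and 714. A floor of 1 FPKM gave 684 and 1904, and no floor 735 and 2160. Requiring the counting interval to exclude 2-fold gave 97 and 705. The other 9 alternatives (a floor of 10 FPKM, both pseudocounts, the 3 scalings, genes at 0 counted in, protein-coding genes only, and an interval that excludes 1) gave between 352 and 632 higher and between 789 and 1213 lower genes, and lower genes outnumbered higher ones under each of the 14. No list with a median of at least 1 in size turned its direction under the alternatives tried. Nor did a named gene that met a call, which the pseudocounts and scalings could not have turned. A pseudocount added to both values cannot carry a ratio across 1, and the largest scaling shifts it by 0.13 on the log2 scale. Among the 470 named genes with a ratio, those that met no call were not counted for direction. *eater*, at a ratio of 0.943, lies above 1 when divided by the upper quartile factor of 0.911. The medians ranged from -3.16 to -1.93 for neurons, from 1.54 to 1.69 for heat shock, from 0.98 to 1.25 for trachea, from 0.72 to 1.31 for the disc margin and from 0.21 to 1.25 for cuticle, the last lowest with no filter on the mean, where unexpressed members enter. With the longest annotated transcript, 11 of 454 intervals came to lie on another side of 1. No paired analysis was possible because each condition has 1 library.

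With 1 library a side, differences between animals, dissections, sorts and preparations are part of every ratio and cannot be told apart from the condition. The TME library is 6.27 times as deep as the control, so that genes near 5 FPKM rest on few control fragments.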

Other observations

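Grouped by the root of their symbols, 114 families had 5 or more genes above 5 FPKM. In 48 of them no gene met a call, in 8 the lower genes were the majority and in 4 the higher genes were. The families with no call include the 21 nucleoporin genes, the 12 *Rpn* genes of the proteasome lid and base, and the 10 *EMC* genes of the endoplasmic reticulum membrane complex. Beyond those of the report, *yellow* family genes were higher for 3 of 5 and *Ugt* glycosyltransferases for 4 of 8, as *Ugt86Di* at 6.45 and 1.47 FPKM (4.40-fold (1.66 to 16.4)). Cadherins had 3 of 6 higher and 1 lower. The roots were grouped after the values were seen, and a shared root does not make a family in every case.

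On chromosome 4, 17 of 74 genes above 5 FPKM were lower in the TME and 1 was higher, with a median log2 difference of -0.32 over the genes above 5 FPKM in both libraries, where the other large chromosome arms had medians from -0.08 to -0.02. The lower genes there include the neuronal genes *onecut* at 2.90 and 36.8 FPKM and *Caps* at 4.83 and 53.4 FPKM, and whether the arm or its neuronal genes carry the difference was not tested. A few genes listed at 0 in a library were well measured in another. *mthl8*, a methuselah-like receptor gene, was at 8.10 FPKM in the TME from about 142 fragments and 8.51 in the tumor and listed at 0 in the control, and *CG43324* was at 51.3 FPKM in the control from about 56 fragments and listed at 0 in the TME. *CG43799* was at 13.2 FPKM in the TME and listed at 0 in both other libraries. *IM2* and *IM3*, genes of immune-induced peptides, were at 5.18 and 9.95 FPKM in the TME and listed at 0 in the control, which would have held about 2.23 and 3.13 fragments at the TME level, near the limit of depth. Of the 53 higher genes at 0 in the control, 31 are small RNA genes, which a library of polyadenylated RNA measures poorly.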
